A study of Mus musculus with 72 samples.

Results

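The 10 genes described here encode the alanine and aspartate aminotransferases and the first steps of branched-chain amino acid breakdown, out of 55401 genes in the deposited tables. They are *Gpt*, *Gpt2*, *Got1*, *Got2*, *Bcat2*, *Bckdha*, *Bckdhb*, *Dbt*, *Bckdk*, and *Ppm1k*. They were chosen by their place in amino acid metabolism, with results of these gastrocnemius libraries in view, and no threshold on a measured value was set. The number of members that passed a test is therefore a description of these libraries. All 10 were measured in every library, with at least 61 reads each, and all 10 passed the filter on low values in every comparison.

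Male mice were used throughout. WT mice were littermates of mice lacking *Bmal1* (*Bmal1*-KO, gene symbol *Arntl*) in the whole body, and KO+AAV mice were KO mice that received, as neonates, an adeno-associated viral vector with HA-tagged *Bmal1* under the constitutive, skeletal muscle-specific CK6 promoter. Gastrocnemius, a mixed but mostly fast calf muscle, was sequenced at 10 weeks of age from 6 WT, 6 KO, and 7 KO+AAV mice and at 40 weeks from 5 mice of each group. A second 10-week experiment compared 3 KO mice given a vector with GFP in place of *Bmal1* (KO+GFP) with 3 KO mice without that vector (KO control). Liver, heart, and white fat were taken at 40 weeks from 4 mice of the KO and 4 of the KO+AAV group, with no WT group. All KO, KO+AAV, KO control, and KO+GFP mice therefore share the whole-body loss of *Bmal1*, and expression of the vector outside skeletal muscle is not part of its design. Per the paper, tissue for RNA-Seq was collected at a single time of day, early in the light phase. A difference in level between groups therefore cannot be told apart here from a difference in daily timing.

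Aminotransferases move an amino group between an amino acid and a keto acid. Alanine aminotransferase joins pyruvate and glutamate to alanine and 2-oxoglutarate, and alanine released by muscle carries carbon and nitrogen to the liver. Aspartate aminotransferase joins aspartate, glutamate, oxaloacetate, and 2-oxoglutarate, and its cytosolic and mitochondrial forms work together in the malate-aspartate shuttle, which brings reducing equivalents into mitochondria. Leucine, isoleucine, and valine are first transaminated in muscle mitochondria, and the branched-chain keto acid dehydrogenase complex then commits their keto acids to oxidation. A kinase switches that complex off by phosphorylation, and a phosphatase switches it on again.

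*Gpt* (15:76695716-76699686, plus strand, GRCm38) encodes the cytosolic alanine aminotransferase and *Gpt2* (8:85492576-85527560, plus) the mitochondrial one. *Got1* (19:43499752-43524605, minus) encodes cytosolic and *Got2* (8:95864134-95888547, minus) mitochondrial aspartate aminotransferase. *Bcat2* (7:45570153-45589711, plus) encodes the mitochondrial branched-chain aminotransferase. The dehydrogenase subunits E1 alpha, E1 beta, and E2 are encoded by *Bckdha* (7:25629946-25658981, minus), *Bckdhb* (9:83925145-84124240, plus), and *Dbt* (3:116513070-116549981, plus). *Bckdk* (7:127904082-127910221, plus) encodes the kinase and *Ppm1k* (6:57506502-57535468, minus) the phosphatase.

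RefSeq entries covering the 250 bases before a RefSeq start were matched for 8 of the members, as 10 entries, with no entry used for *Gpt* and *Dbt*. The windows were searched on both strands for the E-box CACGTG, the sequence that the BMAL1 and CLOCK pair is known to bind, and for the nuclear receptor core motif AGGTCA, with TGACCT on the other strand. None of the 10 windows held the E-box, which 6.02% of 32851 windows of this length held. AGGTCA was found in 4 of the 10 windows, those of *Got1*, *Got2*, *Ppm1k*, and 1 of the entries of *Bckdhb*, and in 14.02% of all windows. RefSeq starts can differ from the gene bounds given above. The windows of *Got2* and *Bckdha*, and 1 of the entries each of *Bcat2* and *Bckdhb*, lie partly or wholly within those bounds. The AGGTCA match of *Got2* is also within them, while that of *Bckdhb* is in the entry before its gene. These letter matches are descriptions of short windows and say nothing of binding. The windows of *Got1* (19:43524606-43524855, minus strand) and *Gpt2* (8:85492326-85492575, plus strand; both GRCm38.p6) are shown because *Got1* differed most between KO and WT muscle among members with an entry, while *Gpt2* passed no test between those groups. Capitals mark AGGTCA.
*Got1*: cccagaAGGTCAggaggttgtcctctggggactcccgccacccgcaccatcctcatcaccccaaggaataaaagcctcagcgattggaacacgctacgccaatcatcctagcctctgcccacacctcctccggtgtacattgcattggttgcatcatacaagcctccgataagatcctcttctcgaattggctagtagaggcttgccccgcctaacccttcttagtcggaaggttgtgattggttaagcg
*Gpt2*: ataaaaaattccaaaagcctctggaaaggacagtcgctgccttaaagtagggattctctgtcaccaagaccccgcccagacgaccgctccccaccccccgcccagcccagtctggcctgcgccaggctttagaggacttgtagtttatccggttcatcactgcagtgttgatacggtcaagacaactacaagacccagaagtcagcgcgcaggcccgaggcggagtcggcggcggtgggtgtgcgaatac

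Reads counted on genes ranged from 9325122 to 41733282 in the 34 gastrocnemius libraries of the main experiment, from 6754312 to 8515400 in the 6 of the GFP experiment, and from 36903079 to 50755829 in liver, heart, and white fat. *Arntl* itself was lower in KO than in WT muscle at 10 weeks (196 to 296 against 402 to 634 normalized counts, log2 difference WT minus KO 1.14, SE 0.19, limma adjusted *P* = 6.59e-05). At 40 weeks WT had 480 to 608, 4 KO libraries had 308 to 395, and the library labelled KO replicate 2 had 1039, above every WT library, so that *Arntl* goes against its label (adjusted *P* = 0.182 with it). Without it the difference was 0.70 (SE 0.14, adjusted *P* = 0.000363), and the members' called 40-week differences from KO are also given without it. KO+AAV muscle had 169 to 281 at 10 weeks and 268 to 359 at 40 weeks, not above KO, so the reads on this gene do not check the KO+AAV label. *Myh4*, the fast myosin gene that marks gastrocnemius, was at least 14261 CPM (reads scaled to the library total) in the 40 gastrocnemius libraries. Each KO and KO+AAV liver library held *Alb*, the albumin gene, at 22567 CPM or more.

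Several libraries stood apart from their group. KO heart replicate 2 held 34420 CPM of 6 hepatocyte genes, against 7.66 to 11.5 in the other heart libraries. KO white fat replicate 2 held 33943 CPM of 5 epididymis genes and 9326 CPM of 8 adipocyte genes, against at least 30245 CPM of adipocyte genes in the other fat libraries. In 40-week KO gastrocnemius, replicate 3 held 10649 CPM of 8 slow-fiber genes against 555 to 2769 in the others, and the library labelled replicate 2 had a median correlation of 0.901 with its group. KO+AAV white fat replicate 2 had one of 0.841 and the lowest adipocyte sum of its group, 30245 CPM. Many results that rest on these libraries are given with and without them, and levels per tissue leave out the heart and fat libraries unless stated.

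Of the 10 members, *Gpt* had the largest difference between WT and KO muscle at both ages. In WT muscle at 10 weeks its normalized counts were between 304 and 487 (median 352, n = 6). KO muscle had 777 to 1436 (median 1077, n = 6), and KO+AAV muscle had 501 to 913 (median 701, n = 7). Every KO value lay above every WT value, every KO+AAV value lay above every WT value as well, and KO+AAV overlapped KO at its upper end. At 40 weeks the 5 WT values were 262, 501, 345, 391, and 422. The KO values were 1758, 1669 (the library labelled KO replicate 2), 1070, 1167, and 1416, and the KO+AAV values were 988, 679, 906, 641, and 777. At this age the 3 groups did not overlap at all, with KO highest, KO+AAV between, and WT lowest.

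The log2 difference of *Gpt* between WT and KO was -1.53 (SE 0.16, adjusted *P* = 2.54e-08) at 10 weeks and -1.88 (SE 0.17, adjusted *P* = 1.44e-09) at 40 weeks, or 2.89-fold and 3.69-fold higher in KO. Without the library labelled KO replicate 2 the 40-week value was -1.82 (adjusted *P* = 9.35e-09). Adjusted *P* values are from limma with Benjamini-Hochberg adjustment over the 16199 genes tested, and a gene is called at an adjusted *P* under 0.05. The 10-week difference was -1.61 among ICBR libraries and -1.45 among Novogene libraries, the 2 sequencing sites, and was called in both. KO+AAV against KO gave -0.82 at 40 weeks (SE 0.17, adjusted *P* = 0.0235), and *Gpt* fell by 0.82 on the log2 scale with the vector. The call was lost when KO replicate 1, the library labelled KO replicate 2 (-0.75, adjusted *P* = 0.0711), or KO+AAV replicate 2, 4, or 5 was left out, with adjusted *P* up to 0.125, and in a fit of these 2 groups alone (0.392). Without KO replicates 2 and 3 together the value was -0.86 (adjusted *P* = 0.0388). At 10 weeks the same comparison gave -0.65 (SE 0.15, adjusted *P* = 0.0601), which limma did not call while edgeR (adjusted *P* = 0.0468) and DESeq2 (0.00961) did.

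*Gpt* in KO+AAV muscle stayed above WT at both ages, with WT minus KO+AAV at -0.88 (SE 0.15, adjusted *P* = 0.000279) at 10 weeks and -1.07 (SE 0.17, adjusted *P* = 5.45e-05) at 40 weeks. The KO+AAV shift from KO was 42.3% of the WT minus KO log2 difference at 10 weeks and 43.5% at 40 weeks. These comparisons share their KO libraries. The order KO above KO+AAV above WT without overlap was held by 5 of 16199 genes at 40 weeks (0.0309%), *Gpt* among them, by 9 at 10 weeks (0.0556%), and by 0 at both ages. Beside these values, the summed level of 8 adipocyte genes was 1204 to 2477 CPM in WT, 295 to 729 in KO, and 1032 to 2432 in KO+AAV muscle at 10 weeks. *Adipoq*, the adipocyte hormone gene in that list, overlapped between the groups, at 0.893 to 14.9 CPM in KO, 1.81 to 9.60 in WT, and 3.22 to 50.8 in KO+AAV. The list also holds *Car3*, which muscle expresses, so the sum is not a measure of fat alone. At 10 weeks 1 of the 8 was called, higher, in WT against KO and in KO+AAV against KO. At 40 weeks the sums were 1559 to 2578 CPM in WT and 829.2 to 2660 CPM in KO, with 3 of the 8 higher in WT, and limma called 0 of the 8 in KO+AAV against KO, where 2 had an unadjusted *P* under 0.05. Macrophage genes were higher in KO+AAV than in KO muscle at 10 weeks by a median of 1.28, with 0 of 6 called by limma, 5 of 6 at an unadjusted *P* under 0.05, and sums of 25.1 to 162 against 15.2 to 43.7 CPM, and 1 of the 6 was called lower in WT than in KO+AAV. All 8 slow-fiber genes lay below 0 in KO+AAV against KO at 40 weeks (median -1.74), with 0 called and 0 at an unadjusted *P* under 0.05. The part of these markers in the *Gpt* values was not tested.

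*Gpt2*, the mitochondrial enzyme, was not called between WT and KO muscle at either age, unlike its cytosolic paralog. Its values at 10 weeks were 4631 to 9019 in WT, 5977 to 10608 in KO, and 3823 to 8895 in KO+AAV muscle. At 40 weeks WT had 5137, 4322, 5464, 5340, and 3626, and KO had 10041, 10736, 1519, 6610, and 5420. The lowest KO value came from replicate 3, the library richest in slow-fiber genes, and the group spanned the whole WT range. KO+AAV muscle had 4053, 6010, 2064, 4924, and 3248. WT minus KO was -0.13 (interval of ±2 SE, -0.75 to 0.50) at 10 weeks and -0.26 (-0.95 to 0.42) at 40 weeks, and no difference of *Gpt2* among the main gastrocnemius groups was called. Without KO replicates 2 and 3 the 40-week values lay on the same side as those of *Gpt*. WT minus KO was then -0.59 (limma adjusted *P* = 0.167) and KO+AAV minus KO -0.90 (0.186), neither called. Without the library labelled KO replicate 2 alone they were -0.03 and -0.34.

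**Figure D1:**
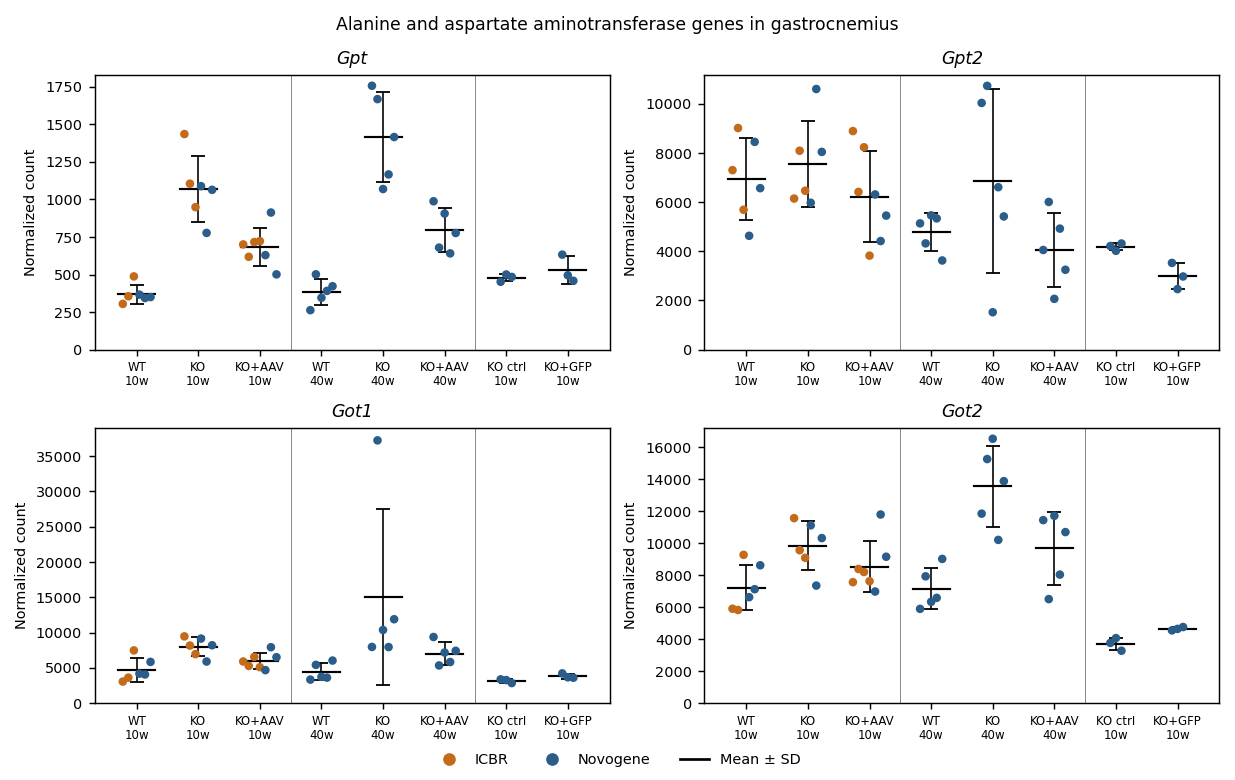
Normalized counts of the 4 alanine and aspartate aminotransferase genes (vertical axes from 0) in each gastrocnemius library, by group. Points are libraries colored by sequencing site, and bars show the mean ± SD. In the *Gpt* panel the 40-week KO libraries lie at 1070 to 1758 above the KO+AAV libraries at 641 to 988 and WT at 262 to 501, and in the *Got1* panel 1 KO library reaches 37238.

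*Got1* was higher in KO than in WT muscle at both ages. At 10 weeks WT had 3055 to 7475 (median 4122), KO 5897 to 9461 (median 8181), and KO+AAV 4678 to 7925 (median 5903). The highest WT value, in replicate 4, lay within the KO range. The log2 difference was -0.81 (SE 0.26, adjusted *P* = 0.0489), close to the threshold, and the call was absent with edgeR (0.091), DESeq2 (0.0552), and within either site alone (0.107 and 0.131). Without WT replicate 4, left out after its values were seen, the difference was -0.97 (limma adjusted *P* = 0.0166). Since that library held the highest WT value, a wider difference without it follows from the choice. Other 10-week libraries of the main experiment were not left out in turn. At 40 weeks WT had 3336, 5422, 3727, 3617, and 6033, and KO had 7965, 37238, 10372, 7947, and 11890. These groups did not overlap, and the library labelled KO replicate 2 stood far above the next one. WT minus KO was -1.53 (SE 0.28, adjusted *P* = 0.000184), -1.13 (adjusted *P* = 0.000324) without that library, and -1.08 (adjusted *P* = 0.00199) without KO replicates 2 and 3.

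*Got1* in KO+AAV muscle was 9372, 5342, 7172, 5829, and 7414 at 40 weeks, overlapping both other groups. KO+AAV minus KO was -0.41 (interval -0.91 to 0.09) at 10 weeks and -0.85 (-1.41 to -0.28, adjusted *P* = 0.257) at 40 weeks, and neither was called. The second value was -0.40 without KO replicates 2 and 3. WT minus KO+AAV at 40 weeks was -0.68 (adjusted *P* = 0.119).

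*Got2* was called at 40 weeks. Its values were 5892, 7926, 6333, 6582, and 9014 in WT and 11843, 15255, 16525, 10202, and 13875 in KO, with no overlap. WT minus KO was -0.92 (SE 0.17, adjusted *P* = 0.000177), or 1.89-fold higher in KO, -0.87 (adjusted *P* = 0.000746) without the library labelled KO replicate 2, and -0.75 (adjusted *P* = 0.0070) without KO replicates 2 and 3. KO+AAV muscle had 11439, 6502, 11707, 8034, and 10691, reaching into both groups, with KO+AAV minus KO at -0.50 (interval -0.84 to -0.16, adjusted *P* = 0.27). At 10 weeks WT had 5821 to 9269, KO 7347 to 11562, and KO+AAV 6975 to 11789. The 10-week WT minus KO difference was -0.45 (SE 0.16, adjusted *P* = 0.0708), which limma did not call. DESeq2 (0.0495) and limma on these 2 groups alone (0.0438) called it, and edgeR (0.079) did not. Without WT replicate 4, a library left out after its values were seen, the difference was -0.54 (limma adjusted *P* = 0.029).

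Reads of *Got2* may be shared with a pseudogene, *Got2-ps1*, at 299 to 863 normalized counts in the 40-week libraries. It was also lower in WT than in KO (-0.99, SE 0.17, adjusted *P* = 8.03e-05). *Gm45760* overlaps 9.0% of the *Got2* exon length on the opposite strand. It had 1.75 to 13.2 normalized counts in the ICBR and 1869 to 3268 in the Novogene libraries at 10 weeks, while *Got2* had 5821 to 11562 and 6623 to 11789. All 40-week libraries are from Novogene. The cause of that difference between sites was not tested.

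Slow-fiber and mitochondrial markers were examined beside both aspartate aminotransferase genes. None of 8 slow-fiber genes was called between WT and KO by limma at either age, although 7 of 8 at 10 weeks and 8 of 8 at 40 weeks lay below 0 (medians -1.35 and -2.28), and 3 of 8 had an unadjusted *P* under 0.05 at 40 weeks. Their summed level was 90.3 to 1728 CPM in WT and 555 to 10649 CPM in KO at 40 weeks. Of 5 mitochondrial mass genes, 3 were lower and 1 higher in WT at 40 weeks, with sums of 2921 to 3681 CPM in WT and 2862 to 3976 CPM in KO. Of 6 fast-fiber genes, 2 were called higher in WT at 40 weeks, 3 had an unadjusted *P* under 0.05, and the median was 0.41, while without the library labelled KO replicate 2 limma called 0 and 2 were under 0.05. Whether fiber makeup accounts for part of the *Got1* and *Got2* values was not tested, and in whole muscle a change in the share of a cell type cannot be told apart from a change in RNA per cell.

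The balance within each enzyme pair is given per length as a description, with no test. Levels between genes are compared in TPM, which scales reads to exon length and then to the library total. *Gpt* made up 9.70% ± 3.17 (SD, n = 6) of the summed *Gpt* and *Gpt2* TPM in 10-week WT muscle, 22.0% ± 6.22 (n = 6) in KO, and 18.4% ± 6.28 (n = 7) in KO+AAV muscle. At 40 weeks the shares were 13.7% ± 4.30, 32.9% ± 14.3, and 29.4% ± 11.2 (n = 5 each). The *Gpt* share overlapped between WT and KO at 10 weeks (up to 14.1% in WT, from 12.3% in KO). At 40 weeks the KO share reached 57.5% in replicate 3, where *Gpt2* was lowest, and without that library it was 26.7% ± 4.58 (n = 4). In WT libraries *Gpt2* was thus the main alanine aminotransferase transcript, at 191 ± 44.8 TPM against 19.6 ± 4.16 for *Gpt* at 10 weeks. *Got1* made up 54.5% ± 3.74 of the summed *Got1* and *Got2* TPM in WT and 60.6% ± 0.884 in KO at 10 weeks, with ranges of 49.6% to 60.5% and 59.2% to 61.9% that overlapped. At 40 weeks the *Got1* share was 53.6% ± 2.47 in WT muscle, 62.9% ± 11.2 without *Bmal1*, and 58.1% ± 3.0 with the *Bmal1* vector, with overlapping ranges. The library labelled KO replicate 2 held the highest of these, 82.3%, and the other 4 KO libraries had 54.4% to 62.0% (58.0% ± 3.42). Without KO replicates 2 and 3 the *Gpt* share was 27.9% ± 4.72 and the *Got1* share 59.2% ± 2.95 (n = 3).

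**Figure D2:**
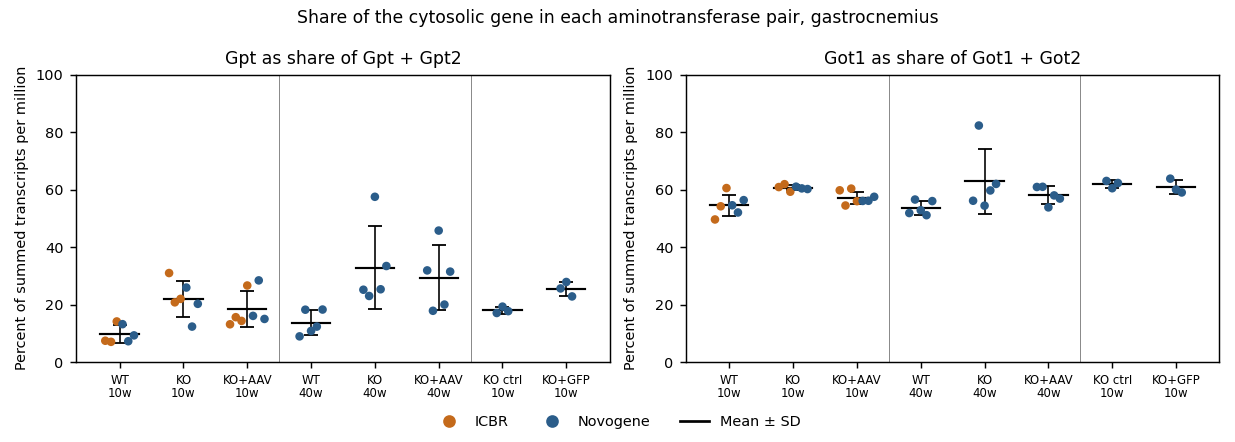
Share of the cytosolic gene in the summed TPM of each aminotransferase pair (vertical axes 0 to 100%) by gastrocnemius group, with a point for each library and the mean ± SD. *Gpt* is a minority of its pair in nearly all libraries, with 9.70% in 10-week WT and 32.9% in 40-week KO muscle on average (26.7% without KO replicate 3), and *Got1* lies close to the middle of the axis.

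*Bcat2*, which starts branched-chain amino acid breakdown, had overlapping ranges in all groups and was not called in any comparison. Its values at 10 weeks were 832 to 1020 in WT, 879 to 1021 in KO, and 686 to 1049 in KO+AAV muscle. At 40 weeks they were 957 to 1191, 685 to 1240, and 708 to 1183. The WT minus KO values were -0.01 (interval -0.24 to 0.23) at 10 weeks and 0.13 (-0.13 to 0.39) at 40 weeks. KO+AAV minus KO was -0.09 (-0.32 to 0.13) and -0.07 (-0.33 to 0.19). The gene *0610005C13Rik* overlaps 15.9% of its exon length on the opposite strand and had at most 156 normalized counts.

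*Bckdha*, the E1 alpha subunit that carries the regulatory phosphorylation sites, was the only dehydrogenase gene of the 3 with a call. At 40 weeks WT had 1640, 2114, 2111, 2163, and 2578, KO had 2523, 4536, 2290, 3107, and 3712, and KO+AAV had 3009, 3098, 2393, 2266, and 2379. The highest WT library overlapped the lower KO libraries. At this age WT minus KO was -0.58 (SE 0.15, adjusted *P* = 0.00621), or 1.49-fold higher in KO, and the fit of these 2 groups alone gave an adjusted *P* of 0.0564. Without the library labelled KO replicate 2, at 4536, it was -0.44 (adjusted *P* = 0.0315). Without KO replicates 2 and 3 it was -0.55 (adjusted *P* = 0.0147). KO+AAV minus KO was -0.27 (interval -0.57 to 0.04). At 10 weeks the values were 1713 to 2442 in WT, 1972 to 2442 in KO, and 1399 to 2818 in KO+AAV muscle, with WT minus KO at -0.18 (-0.46 to 0.10).

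A limit applies to *Bckdha*. *B3gnt8*, a glycosyltransferase gene, overlaps 61.7% of its exon length on the opposite strand. *B3gnt8* had 7.14 to 21.1 normalized counts in the 10 ICBR libraries at 10 weeks and 1326 to 2243 in the 9 Novogene libraries, while *Bckdha* had 1399 to 2311 and 1725 to 2818. In the 40-week libraries, all from Novogene, *B3gnt8* had 1306 to 3551 normalized counts and was also lower in WT than in KO (-0.59, SE 0.20, adjusted *P* = 0.0261). Whether counting used the strand is not given in the sources used here, and how far reads of one gene were counted for the other was not tested.

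*Bckdhb* and *Dbt*, the E1 beta and E2 subunits, were not called in any comparison by limma over all gastrocnemius groups. *Bckdhb* had 262 to 321 normalized counts in WT and 242 to 334 in KO at 10 weeks, and 298 to 357 and 251 to 523 at 40 weeks. For *Bckdhb* the WT minus KO values were -0.02 (interval -0.28 to 0.25) and -0.12 (-0.41 to 0.17). *Dbt* at 10 weeks had 465 to 563 in WT, 563 to 613 in KO, and 475 to 686 in KO+AAV muscle. WT and KO libraries just failed to overlap, by less than 1 normalized count, but the difference was -0.22 (interval -0.57 to 0.13, adjusted *P* = 0.56). Limma on these 2 groups alone called it (adjusted *P* = 0.0326), while edgeR (0.583) and DESeq2 (0.575) did not. At 40 weeks the *Dbt* values were 521 to 593 in WT, and 417, 1264, 368, 605, and 543 in KO, where the library labelled replicate 2 was highest and the group lay on both sides of WT.

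*Bckdk* was not called in any comparison. Its values were 2151 to 2556 in WT, 2218 to 2684 in KO, and 1826 to 2622 in KO+AAV muscle at 10 weeks, and 2271 to 2527, 2048 to 3049, and 1928 to 2391 at 40 weeks. The *Bckdk* differences, WT minus KO, were -0.04 (interval -0.23 to 0.14) and -0.05 (-0.25 to 0.16). KO+AAV minus KO at 40 weeks was -0.22 (limma adjusted *P* = 0.479) without the library labelled KO replicate 2. It was -0.32 (0.227) without KO replicates 2 and 3, and neither was called. *Ppm1k*, the opposing phosphatase, was far lower and more scattered, at 174 to 332 in WT and 258 to 342 in KO at 10 weeks. At 40 weeks KO had 151, 605, 277, 328, and 310 and KO+AAV had 282, 168, 238, 180, and 177. KO+AAV minus KO was -0.57 (interval -1.01 to -0.12, adjusted *P* = 0.368), not called, and -0.28 without KO replicates 2 and 3. Per length, *Bckdk* exceeded *Ppm1k* in 10-week WT muscle, at 102 ± 6.76 against 6.69 ± 1.36 TPM (n = 6).

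**Figure D3:**
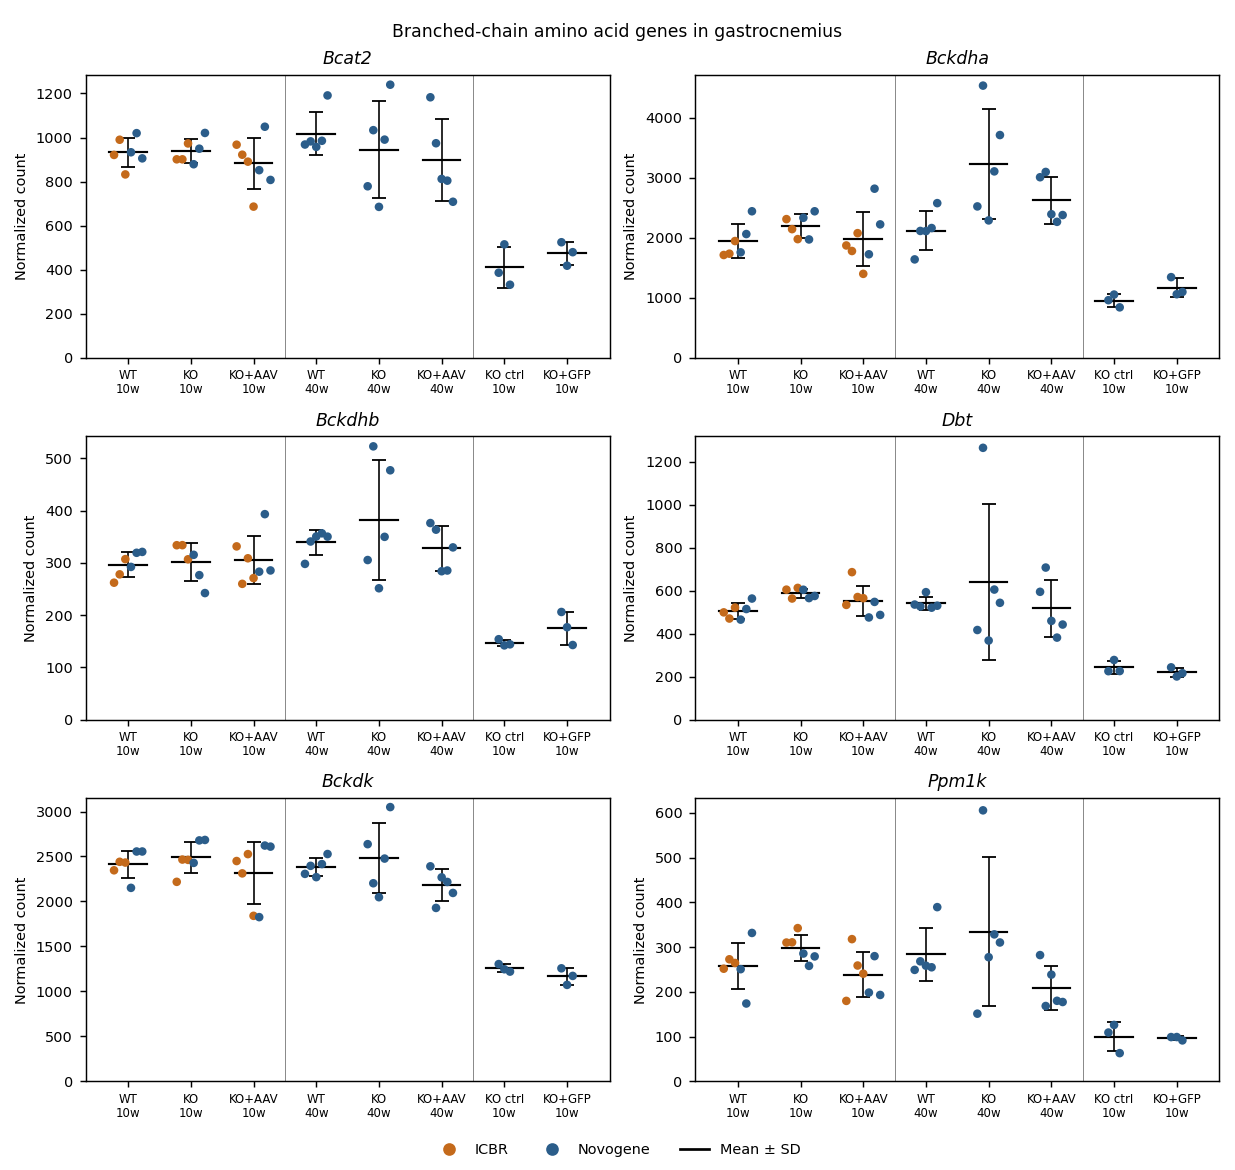
Normalized counts of the 6 branched-chain amino acid genes (vertical axes from 0) in each gastrocnemius library, by group, with points colored by sequencing site and bars for the mean ± SD. *Bckdha* is higher in 40-week KO than in WT muscle, 2290 to 4536 against 1640 to 2578 with overlap, while *Bckdk* keeps to 1826 to 3049 in all groups of the main experiment.

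Counted over the members, 2 of 10 were called between WT and KO at 10 weeks, both lower in WT, where 8.0% of all 16199 genes were called and 3.74% were called lower in WT. At 40 weeks 4 of 10 were called, all lower in WT, against 23.5% of all genes called and 11.5% lower in WT. Groups without overlap and lower in WT held *Gpt* and *Dbt* at 10 weeks, against 2.61% of all genes, and *Gpt*, *Got1*, and *Got2* at 40 weeks, against 6.67%. The median WT minus KO log2 difference of the 10 members was -0.20 at 10 weeks and -0.19 at 40 weeks, with medians of -0.01 and 0.01 over all genes. Without the library labelled KO replicate 2 the 40-week median of the members was -0.06, and -0.37 without KO replicates 2 and 3, with 4 called both times. The share of all genes called in those 2 fits is not given here, so these counts cannot be set against one. KO+AAV against KO gave 0 called members at 10 weeks with limma, where 0.204% of all genes were called. *Gpt* alone had an unadjusted *P* under 0.05, lower in KO+AAV as for 3.71% of all genes, and *Gpt* alone was called by edgeR (0.302% of all genes) and DESeq2 (0.907%). At 40 weeks it gave 1 of 10, *Gpt*, against 0.259% of all genes. *Gpt*, *Got1*, *Got2*, and *Ppm1k* had an unadjusted *P* under 0.05 there, all lower in KO+AAV, as for 4.32% of all genes. Without the library labelled KO replicate 2 these were *Gpt*, *Got1*, *Got2*, and *Bckdk*. Without KO replicates 2 and 3 they were *Gpt*, *Gpt2*, and *Bckdk*, so *Got1* and *Got2* were no longer among them. *Gpt* alone did not overlap between these groups, as for 0.457% of all genes on the same side. WT against KO+AAV gave *Gpt* alone at each age, against 5.15% and 12.5% of all genes.

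**Figure D4:**
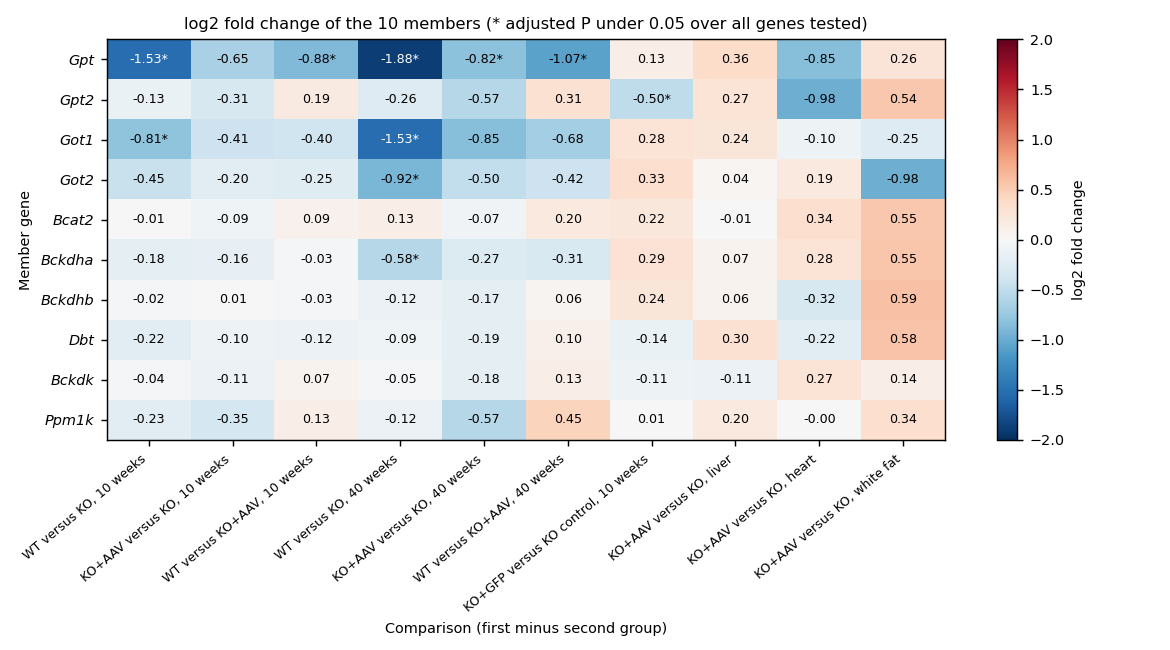
Log2 differences (first group minus second, color scale -2 to 2) of the 10 members in each comparison, with asterisks at an adjusted *P* under 0.05. *Gpt*, at -1.88 for WT against KO at 40 weeks, holds the value farthest from 0, and the liver, heart, and white fat columns hold no asterisk.

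Age and sequencing site are partly confounded, since the 40-week libraries came from Novogene alone, and site was a term in the model. In KO muscle 0 of 10 members were called between 40 and 10 weeks by limma, where 8.31% of all genes were. Of the 10, 4 had an unadjusted *P* under 0.05 and all 4 were higher at 40 weeks: *Gpt* (0.47, adjusted *P* = 0.0937), *Got1* (0.63, 0.176), *Got2* (0.42, 0.136), and *Bckdha* (0.42, 0.0949), where 11.9% of all genes were higher at that threshold. Without the library labelled KO replicate 2 only *Gpt* (0.40, adjusted *P* = 0.247) was under it. With all KO libraries, DESeq2 called *Got1*, where it called 10.2% of all genes, and edgeR called 0, where it called 7.41%. In WT and in KO+AAV muscle 0 members were called by limma, edgeR, or DESeq2 and 0 had an unadjusted *P* under 0.05 with limma, where limma called 0.148% and 8.53% of all genes. The difference between ages in the WT minus KO effect was not called for any member, with *Got1* at -0.72 (SE 0.39, adjusted *P* = 0.43) and *Gpt* at -0.35 (SE 0.23, adjusted *P* = 0.529). Nor was it called for the KO+AAV minus KO effect. Over all genes 0.37% and 0.00617% were called in these tests. Unadjusted *P* values under 0.05 numbered 0 of 10 in both with limma, and edgeR and DESeq2 called 0.

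The GFP experiment, deposited as a table of its own with its own normalization, asks what the vector without *Bmal1* does in KO muscle. Its levels cannot be set against the main groups. *Gpt* was 452, 500, and 484 in KO control and 633, 495, and 458 in KO+GFP muscle, with overlapping groups and a difference of 0.13 (interval -0.11 to 0.37, adjusted *P* = 0.613). *Gpt2* was lower with the GFP vector, at 3528, 2461, and 2974 against 4215, 4020, and 4317, a difference of -0.50 (SE 0.11, adjusted *P* = 0.0377). This was the 1 call among the 10 members, where 3.09% of 14477 genes were called, and it was lost in 5 of 6 fits that left out 1 library, with adjusted *P* up to 0.17. Only leaving out KO+GFP replicate 1 kept it.

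*Got1* (3372, 3269, and 2845 against 4215, 3662, and 3601 with GFP), *Got2* (3765, 4063, and 3275 against 4547, 4640, and 4758), and *Bckdha* (960, 1054, and 840 against 1344, 1059, and 1097) were each higher in all 3 KO+GFP libraries than in any control. Of all 14477 genes, 23.5% had groups without overlap. Their differences were 0.28 (adjusted *P* = 0.14), 0.33 (0.072), and 0.29 (0.181), not called by limma, and DESeq2 called *Got2* (0.0385). Slow-fiber genes moved with the GFP vector, with 6 of 8 called higher and a summed level of 1590 to 2071 CPM against 159 to 1020, and 4 of 6 macrophage genes were also higher. Schwann cell genes were lower, with 3 of 5 called, all 5 at an unadjusted *P* under 0.05, and a median of -0.97. The part of these markers in the member values was not tested. The difference between the *Bmal1* and GFP vector effects at 10 weeks, a comparison added after the data were seen, was -0.78 for *Gpt* (SE 0.26, adjusted *P* = 0.423), not called, where 2 of 16019 genes were (0.0125%).

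The wider pathway was described with 57 other genes, of which 51 passed the filter in the main experiment. Between WT and KO at 10 weeks 8 of 25 genes of branched-chain amino acid catabolism were lower in WT, as were 3.74% of all genes, and 0 higher. They included *Acadm* (-0.80, SE 0.17, adjusted *P* = 0.00157), *Hadhb* (-0.74, SE 0.17, 0.00494) and *Hadha* (-0.66, SE 0.16, 0.00726), which are best known for fatty acid oxidation. At 40 weeks 13 of 25 were lower in WT, as were 11.5% of all genes, and 0 higher, with *Hadha* at -0.96 (SE 0.18, 0.000147) and *Acad8*, the isobutyryl-CoA dehydrogenase of valine breakdown, at -0.43 (SE 0.08, 0.000333). *Dld*, the shared E3 subunit of the dehydrogenase complex, was at -0.35 (SE 0.11, 0.0218). The median of the 25 was -0.26 at 10 weeks and -0.35 at 40 weeks, against -0.01 and 0.01 over all genes. Without the library labelled KO replicate 2, 9 of the 25 were called at 40 weeks, and 9 without KO replicates 2 and 3, with no share of all genes given for these fits.

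Of 7 malate-aspartate shuttle genes, 4 were called at 40 weeks, each lower in WT, as were 11.5% of all genes. *Slc25a11*, the oxoglutarate carrier, was at -0.62 (SE 0.14, adjusted *P* = 0.00102) and *Mdh2*, mitochondrial malate dehydrogenase, at -0.41 (SE 0.11, 0.00475). *Mdh1*, the cytosolic form, was at -0.77 (SE 0.21, 0.00848) and *Slc25a22*, a glutamate carrier, at -0.96 (SE 0.35, 0.0428). None of the 7 was called at 10 weeks, although 3 had an unadjusted *P* under 0.05. In the opposite direction, *Aldh18a1*, of proline synthesis, was higher in WT at 40 weeks (1.43, SE 0.31, adjusted *P* = 0.000891). The coactivator gene *Ppargc1a* was also higher in WT (0.67, SE 0.19, 0.0094) and *Kyat3*, an aminotransferase, was lower (-0.73, SE 0.19, 0.00507). Without KO replicates 2 and 3 the calls of *Dld* (adjusted *P* = 0.0828), *Mdh1* (0.0709), *Ppargc1a* (0.111), and *Kyat3* (0.0779) were lost.

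KO+AAV against KO called 0 of the 51 pathway genes at each age with limma. The branched-chain list leaned below 0, with 24 of 25 genes at 10 weeks and 23 of 25 at 40 weeks, medians of -0.16 and -0.17, and 7 and 5 genes with an unadjusted *P* under 0.05. Over all genes the medians were 0.01 and 0.02, and 9.23% and 10.1% passed that threshold in either direction. *Klf15*, a transcription factor known to control *Bcat2* and *Gpt* in muscle, was not called by limma in WT against KO (-0.11, SE 0.36, and -0.49, SE 0.39), while DESeq2 called it at 40 weeks (adjusted *P* = 0.0461). *Slc25a44*, the mitochondrial carrier of branched-chain amino acids, was at 0.03 and -0.06 in WT against KO, not called. *Bcat1*, the cytosolic branched-chain aminotransferase, averaged at most 17.0 normalized counts in the main gastrocnemius groups. With the GFP vector 9 of 48 pathway genes tested were higher, as were 1.83% of all genes, and 0 lower, among them *Oxct1* (0.79, SE 0.11, adjusted *P* = 0.00269), which activates ketone bodies, and *Mdh1* (0.57, SE 0.09, 0.00417).

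Across the 34 gastrocnemius libraries, after removing the site means, *Got1* and *Got2* correlated at r = 0.88 and at 0.72 within groups. *Gpt* correlated at 0.82 with *Got1* and 0.83 with *Got2*, and at 0.02 with its paralog *Gpt2*. *Gpt2* and *Got2* were at -0.27. Within groups these values were 0.59, 0.62, -0.02, and -0.53. These are descriptions over libraries that share groups, fiber makeup, and depth. The genes with patterns most like *Gpt* were *Agpat3* (0.94, and 0.55 within groups), *Gstm7* (0.93), and *Plin5*, a lipid droplet protein gene (0.92). Those most like *Gpt2* were *Slc38a4* (0.89), *Actn3*, alpha-actinin of fast fibers (0.85), and *Atp2a1*, the fast-fiber calcium pump (0.84). Among the genes most like *Got1* was *Arhgap24* (0.91), and *Got2* was closest to its pseudogene (0.98), *Ckmt2*, mitochondrial creatine kinase (0.95), and *Mdh1* (0.95). *Bckdha* was closest to *Ivd* (0.90), *Bckdhb* to *Art5* (0.80) and then *Bckdha* (0.76), and *Dbt* to *Rb1cc1* (0.83). *Bckdk* was closest to *Suclg1* (0.82), *Ppm1k* to *Tmem106b* (0.75), and *Bcat2* to *Adhfe1* (0.73).

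Liver, heart, and white fat were compared between KO+AAV and KO mice at 40 weeks. None of the 10 members was called in any of these tissues by limma, edgeR, or DESeq2 (which gave no adjusted *P* for *Gpt2* in heart), and none had an unadjusted *P* under 0.05 with limma. At that unadjusted threshold edgeR had 1 of 10 in liver, and DESeq2 had 1 of 10 in each of liver, heart, and white fat. The share of all genes under it with edgeR or DESeq2 is not given here, so these counts cannot be set against one. Limma also called 0 of 16656, 18089, and 21092 genes there (0.0% each). *Gpt* in liver was 10789, 15778, 18858, and 15182 in KO and 18168, 25471, 16136, and 17845 in KO+AAV mice, a difference of 0.36 (interval -0.01 to 0.74). The heart value of *Gpt* was -0.85 (-2.21 to 0.52), with KO replicate 2 at 16416 and the other 3 KO libraries at 3006, 2353, and 1356. Without KO replicate 2 the heart value of *Gpt* was -0.11 (-0.66 to 0.45), and that of *Gpt2* went from -0.98 (-2.52 to 0.56) to -0.09 (-0.37 to 0.18). Leaving out each heart or white fat library in turn called 0 members.

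The library labelled KO white fat replicate 2 held the highest *Got2* of that tissue, 25043 normalized counts against 2890 to 5546 in the others, and *Gpt* at 4078 against 15728 and above in the other KO fat libraries. KO+AAV minus KO for *Got2* in white fat was -0.98 (-2.21 to 0.24), and -0.34 (-0.78 to 0.11) without both replicates 2. In that smaller fit *Bcat2* was at 0.31 (0.10 to 0.52, limma unadjusted *P* = 0.0219, adjusted *P* = 0.891), not called. KO+AAV white fat replicate 2, left out after its values were seen, also had low *Gpt*, 4191 against 22595 to 28867. Epididymis genes in KO+AAV fat libraries summed to at most 19.8 CPM.

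Per length and without the heart and fat libraries that stood apart, the order of tissues differed between genes in KO and KO+AAV mice at 40 weeks. *Gpt* was highest in white fat (551 ± 67.6 TPM, n = 6) and liver (370 ± 87.1, n = 8), whose ranges overlapped, and lower in gastrocnemius (55.9 ± 17.2, n = 10) and heart (40.6 ± 7.43, n = 7), which also overlapped. The white fat value was 489 ± 175 (n = 7) with KO+AAV replicate 2 kept and 440 ± 215 (n = 8) over all fat libraries, where the lowest had 90.4 TPM. *Gpt2* was near 13.4 ± 2.04 TPM in heart, below every library of the other tissues, which overlapped one another between 42.8 and 297 TPM. *Got1* was at 676 ± 37.3 TPM in heart, 637 ± 489 in gastrocnemius (487 ± 120 without the library labelled KO replicate 2), and 565 ± 198 in liver, all overlapping, and at 16.4 ± 7.46 in white fat. *Got2* had 558 ± 40.9 TPM in heart, 361 ± 94.0 in gastrocnemius, and 340 ± 31.9 in liver, with each overlapping the next, and 50.7 ± 20.1 in white fat, below all others. Over all libraries *Got2* in white fat was 87.3 ± 103 TPM and reached 338, and *Gpt2* in heart was 29.5 ± 45.5 and reached 142, so both overlapped other tissues. The *Gpt* share of its pair was 75.0% ± 2.17 in heart and 66.5% ± 3.22 in liver of KO+AAV mice (n = 4 each), against 29.4% ± 11.2 in gastrocnemius (n = 5).

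Among the branched-chain genes, again without the heart and fat libraries that stood apart, white fat led for most. *Bcat2* was at 199.5 ± 20.7 TPM in white fat, 71.1 ± 6.11 in heart, 35.4 ± 6.60 in gastrocnemius, and 17.0 ± 3.71 in liver, with no overlap between neighbours. *Bckdhb* (188 ± 19.5 in fat, 137 ± 9.59 in liver, 49.3 ± 3.04 in heart, 29.3 ± 5.81 in gastrocnemius) also separated every tissue. *Dbt* had the same order, 150 ± 18.2, 87.2 ± 16.5, 36.7 ± 4.65, and 25.6 ± 10.2 TPM, with heart and gastrocnemius overlapping. Over all libraries white fat was no longer apart from heart for these 3 genes. White fat reached down to 74.4 TPM for *Bcat2*, 70.4 for *Bckdhb*, and 40.4 for *Dbt*, and heart up to 77.2, 110, and 79.7. *Bckdha* was within 230 to 384 TPM on average in all 4 tissues, and each neighbour in its order overlapped. *Bckdk* was highest in gastrocnemius (94.7 ± 11.4 TPM) and lowest in liver (8.97 ± 1.29). *Ppm1k* was highest in heart (43.2 ± 5.98 TPM) and lowest in white fat (7.11 ± 1.13) and gastrocnemius (6.70 ± 2.90), which overlapped. Tissue differs together with sequencing site here, since Novogene sequenced gastrocnemius at this age and ICBR sequenced liver, heart, and white fat, so the 2 cannot be told apart for gastrocnemius.

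**Figure D5:**
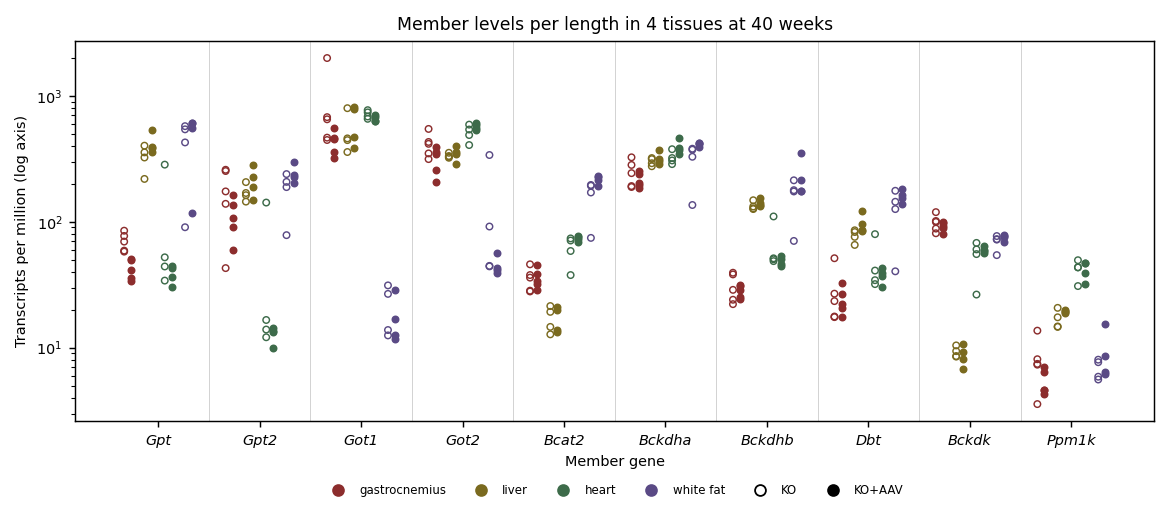
Levels of the 10 members in TPM (log axis) in gastrocnemius, liver, heart, and white fat at 40 weeks in the KO and KO+AAV groups, with open points for KO and filled points for KO+AAV libraries. *Got1* and *Got2* are lowest in white fat (16.4 and 50.7 TPM on average without the libraries that stood apart), *Gpt2* is lowest in heart (13.4 TPM), and *Bckdk* is lowest in liver (8.97 TPM).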

How the data were processed

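RNA-Seq of 72 mouse libraries was used: the 40 gastrocnemius, 8 liver, 8 heart, and 8 white fat libraries described, with 8 lung libraries fitted as a check only. Per the labels and methods, the authors used HISAT2 for alignment to GRCm38 and HTSeq for counts per gene, and divided these by 1 DESeq2 size factor per library. The deposited values are therefore normalized counts, a signal rather than whole counts, and levels cannot be compared between tables normalized separately. Multiplying by the size factor gave whole reads (within 0.01) for 100% of values. The annotation release and strand setting are not given in the sources used here, so how reads on genes that overlap on opposite strands were counted is not known.

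Log2(normalized count + 1) was fitted in R 4.3.3 with limma 3.58.1, its prior variance following mean expression, over genes with a mean above 5. The 34 gastrocnemius libraries formed 1 model of 6 groups with sequencing site as covariate, and the GFP experiment and each tissue had their own. The difference between the *Bmal1* and GFP vector effects came from 1 further limma model. It held all 40 gastrocnemius libraries of both tables, with site as covariate, and compared differences that were each taken within 1 table. Tests were two-sided. edgeR 4.0.16 (quasi-likelihood) and DESeq2 1.42.0 were run on the recovered reads as alternatives, beside a changed pseudocount, filter, or scaling, site subsets, the replicate block, and leaving out libraries. Leaving out WT replicate 4, KO replicates 2 and 3, and both white fat replicates 2 was chosen after seeing the data. The code was tested on simulated data. TPM used exon lengths of GENCODE vM21, and figures used matplotlib 3.10.9 in Python 3.11.15. Replicates are separate samples per the labels, and *P* values measure the spread between them.

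The members, gene lists, and tests were chosen with earlier results of these data known. Genes named are the 10 members, up to 3 pathway genes per direction and comparison with the smallest *P* among those called, *Klf15*, *Bcat1*, *Dld*, *Slc25a44*, *Arntl*, and up to 3 genes most like each member. *Slc25a11*, *Slc25a22*, *Mdh1*, *Mdh2*, *Kyat3*, and genes that overlap or copy a member were named after their values were seen, and marker genes come from the lists. Means are given ± SD, and intervals of a difference are ±2 SE. Some genes that these rules select are not reported here.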

Additional observations from a re-analysis of the deposited data

Results flagged for a closer look

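In groups of 4 to 10 libraries, a library was singled out when its gap to the nearest other, divided by the range of the group, passed Dixon's 95% value. This held for 8 of the 120 combinations of member and group examined, where chance gives about 1 in 20. *Got1* in 40-week KO gastrocnemius was 37238 in the library labelled replicate 2, against 7947 to 11890 in the others. *Gpt2* in KO heart was 15746 in replicate 2, the library with hepatocyte genes, against 1267 to 1425. In KO+AAV white fat, replicate 2 had the lowest *Gpt*, 4191 against 22595 to 28867, and the highest *Bckdhb*, 7641 against 5032 to 5386. In 40-week WT gastrocnemius, replicate 5 was highest for *Bcat2* (1191 against 957 to 985) and *Ppm1k* (389 against 249 to 268), replicate 3 was highest for *Dbt* (593 against 521 to 535), and replicate 1 was lowest for *Bckdhb* (298 against 341 to 357).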

How the results depend on the processing

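Between WT and KO at 10 weeks 2 members were called, 4 with the 2 groups alone (adding *Got2* and *Dbt*), 2 with DESeq2 (*Gpt* and *Got2*), and 1 with ICBR libraries alone, Novogene libraries alone, TMM rescaling, edgeR, no filter, no site term, or the replicate block; *Gpt* was called in each. KO+AAV against KO at 10 weeks went from 0 to 1 with edgeR and with DESeq2. WT against KO+AAV at 10 weeks went from 1 to 0 with Novogene libraries alone. KO+AAV against KO at 40 weeks went from 1 to 0 with the 2 groups alone and with the replicate block (*Gpt* adjusted *P* = 0.0672), and WT against KO+AAV at 40 weeks from 1 to 2 with the 2 groups alone. KO at 40 against 10 weeks went from 0 to 1 with DESeq2 (*Got1*, where 10.2% of all genes were called) and without the site term (*Bckdha*). The GFP comparison went from 1 to 2 with DESeq2, which called 3.78% of all genes there. Lung, outside the comparisons described, went from 0 to 2 with DESeq2 (*Got1* and *Got2*), which called 2.97% of all genes there. Leaving out 1 library gave 0 to 1 called members for KO+AAV against KO at 40 weeks, 1 to 2 for WT against KO+AAV at 40 weeks, 0 to 1 for KO at 40 against 10 weeks, 0 to 1 for the GFP comparison, and 0 to 2 for lung. The value for WT against KO at 40 weeks was 4, and 4 to 5 with a library left out. The share of all genes called in fits without 1 library is not given here, and the causes were not tested. Of the other values, those of single members, 243 kept their side of the threshold, 10 gained a call, and 12 lost one, apart from leaving out 1 library. Replicate numbers were not taken as pairs in the main fits, and these values do not settle whether they mark pairs. Same-numbered gastrocnemius libraries of KO+AAV and KO correlated at -0.30 to 0.06 at 10 weeks and -0.02 to 0.57 at 40 weeks, and 1 of 6 and 2 of 5 correlated best with their own number. WT and KO correlated at 0.08 to 0.27 (2 of 5 best with their own) and -0.25 to 0.19 (0 of 5), and KO+GFP and KO control at 0.02 to 0.07 (3 of 3). For KO+AAV and KO the range was -0.49 to 0.70 in white fat (2 of 4), -0.25 to 0.31 in heart (2 of 4), and -0.13 to 0.01 in liver (0 of 4). Depth limits *Ppm1k* most, with 61 reads in its shallowest library.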
